A study of Mus musculus with 42 samples.

Results

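The kidneys compared here had lost both Tsc2 and Tfeb (double knockout, DKO) or neither, in mice whose Cre recombinase acts in the whole body after tamoxifen (CaggCreERT2). The comparison rests on 6 of the 42 kidneys of the series, 3 DKO and 3 control, taken by the group names in the table of FPKM values. FPKM scales fragments by gene length and library size, so that levels of different genes can be set side by side. Messenger RNA of whole kidneys was sequenced in 3 cohorts of mice lacking Tsc2, Tfeb or both. The question put to the DKO was how much of the transcriptional change after Tsc2 loss remains when Tfeb is lost as well. DKO mice had the genotype CaggCreERT2+; Tsc2 fl/fl; Tfeb fl/fl. The control libraries are labelled wild type, and elsewhere the sequencing controls are described as Cre-positive mice with unfloxed Tsc2 (CaggCreERT2+; Tsc2+/+). For kidney weights at this age the controls are described as unfloxed at both genes (Tsc2+/+; Tfeb+/+), while for the sequenced controls the Tfeb allele is not named. Pups of both groups received tamoxifen through the milk of treated mothers, were kept on a C57BL/6 background and were studied at postnatal day 30 (P30). The other CaggCreERT2 groups, Tsc2 knockout (Tsc2 KO) and Tfeb knockout (Tfeb KO), had 3 kidneys each and are given beside the DKO only where they show how it differs. Cre was not limited to one tissue or kidney cell type, and each library holds the mixed cells of a whole kidney. DKO and control mice differ in the floxed alleles as well as in the deletions, so an effect of sequence linked to a floxed allele and an effect of the deletion cannot be told apart. The other cohorts carried KspCre, which acts in kidney epithelium, and were studied at P50 on the same background. Their DKO mice had the genotype KspCre+; Tsc2 fl/fl; Tfeb fl/fl, and their controls are described as Cre-negative. The KspCre kidneys compared here came from untreated mice or from mice injected with vehicle. Kidneys of the vehicle cohort's rapamycin-treated mice were part of the statistical fit for the vehicle comparison, but were not compared themselves.

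TSC2, with TSC1, holds the GTPase RHEB inactive and so restrains mTORC1, the kinase complex that drives protein, nucleotide and lipid synthesis at the lysosomal surface. TFEB is a member of the MiT/TFE family of transcription factors (TFEB, TFE3, MITF and TFEC), which bind E-box-like sites in the promoters of lysosomal and autophagy genes and also raise the Rag GTPases that bring mTORC1 to the lysosome. Loss of TSC2 in the kidney is known to cause cysts and tumors in patients and mice.

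Before the results, the library names need a comment. In the CaggCreERT2 cohort the table of counts and the table of FPKM disagree on 4 library names. FPKM multiplied by gene length and divided by counts is constant only when the count columns named Tfeb KO 3, DKO 1 and DKO 2 are read as DKO 1, 2 and 3 of the FPKM table. Libraries go by their FPKM names here. Under the names of the count table edgeR called 1 gene increased and 0 decreased. The targeted genes matched the names used. Tsc2 (ENSMUSG00000002496, chr17:24595816-24632630 on GRCm38) was at 10.6, 10.6 and 9.81 FPKM in the controls and 5.26, 4.82 and 5.64 FPKM in DKO, a log2 fold change of -0.94 ± 0.09 (SE; edgeR's quasi-likelihood test, adjusted p = 5.53e-05 by Benjamini-Hochberg). Tfeb (ENSMUSG00000023990, chr17:47737030-47792419) was at 5.3, 4.57 and 8.02 FPKM in the controls and 2.8, 3.48 and 1.99 FPKM in DKO (log2 fold change -1.08 ± 0.23, adjusted p = 0.0111). Every DKO kidney lay below every control for both genes. Tfeb lost its call without control 3, where the fold change was -0.80 and the adjusted p 0.0471 but the mean of the controls fell under the FPKM minimum of 5 used for calls. These values sum all exons, so that transcripts of a floxed gene that lack only the deleted exons still count. Gpnmb, a transmembrane glycoprotein used as a marker of MiT/TFE activity, was at 0.0358, 0.0235 and 0.0349 FPKM in the controls, 3.96, 3.67 and 1.53 FPKM in DKO and 60.2, 29.1 and 14.8 FPKM in Tsc2 KO. It was higher in DKO than in control by 6.61 ± 0.77 on the log2 scale (adjusted p = 0.000217) without reaching the FPKM minimum, and lower in DKO than in Tsc2 KO by a log2 difference of -3.53 (adjusted p = 0.00116).

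Reads on genes totalled 16628767 to 19154801 in the DKO libraries and 18971329 to 20865587 in the controls. By the X-linked transcript Xist, DKO 3 came from a female and the other 5 kidneys from males. On the first principal component of the 2000 most variable genes, which held 47% of the variance, the DKO kidneys scored 7.77 to 14.8, between the controls (-32.4 to -27.0) and the Tsc2 KO kidneys (44.2 to 70.7). The second component, with 14.4% of the variance, set the DKO kidneys (-35.7 to -25.0) apart from the controls (14.4 to 27.1). A call needed an adjusted p no higher than 0.05 together with a mean of 5 FPKM or more in DKO or control. Of 7950 genes that reached this FPKM minimum, 809 (10.2%) were increased and 376 (4.73%) decreased in DKO. In the fits that left out 1 library these were 498 to 572 genes (6.26% to 7.19%) and 152 to 279 genes (1.91% to 3.49%), the fewest without control 1 in both directions. With edgeR on the 2 groups alone 1111 were increased and 826 decreased. The change reached 2-fold for 259 of the increased and 102 of the decreased genes, and the median log2 fold change of the 7950 genes was 0.02. The 3 DKO and 3 control values did not overlap for 805 of the increased and 375 of the decreased genes, whereas 20.6% of the 7950 genes had all DKO above all control values and 22.9% all below.

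**Figure D1:**
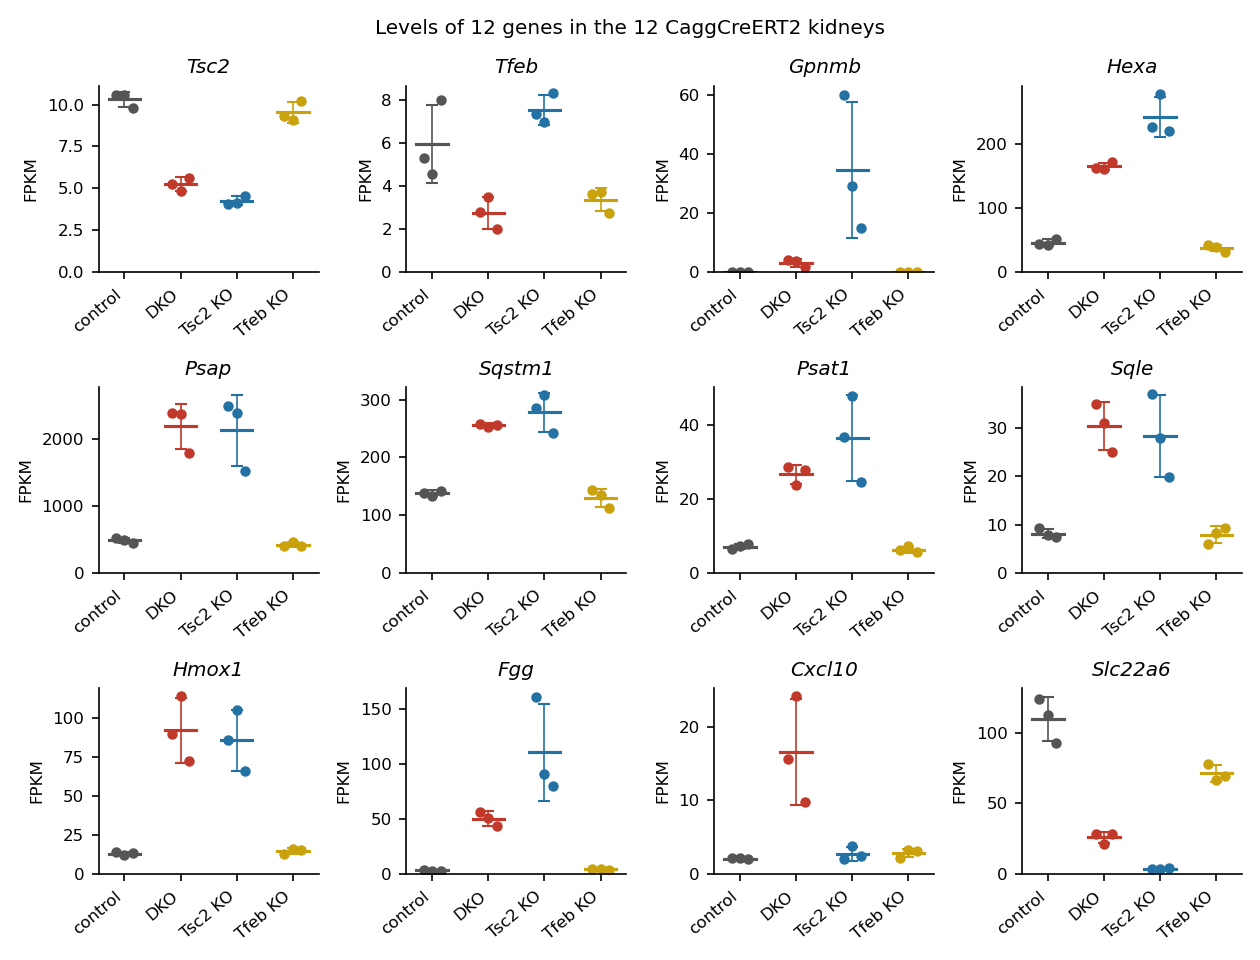
FPKM (linear axis) of 12 genes in each of the 12 CaggCreERT2 kidneys, by group; points are kidneys, horizontal bars group means and vertical bars ± 1 SD (n = 3). Hexa, Psap, Sqstm1, Psat1, Sqle, Hmox1 and Fgg are higher in every DKO than in every control kidney, Cxcl10 is highest in the DKO kidneys, and Slc22a6 lies between control and Tsc2 KO.

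Among lysosomal genes, 36 of the 93 that reached the FPKM minimum rose in DKO and none was called decreased by edgeR (6 fell at an unadjusted p of 0.05 or lower, and DESeq2 called 0). The share compares with 10.2% of all genes called increased, and the median log2 fold change of the 95 genes fitted was 0.33, against -0.001 over all genes fitted. The list does not hold Atp6v0c, a V-ATPase subunit that was called decreased and is described with its copy below. Leaving out a library gave 29 to 33 increased genes. By role, 7 of 14 proteases and 11 of 22 enzymes of glycan and sulfate breakdown rose. Hexa, the alpha subunit of the hexosaminidase that degrades GM2 ganglioside, was at 43.2, 42.1 and 52.5 FPKM in the controls and 163, 162 and 172 FPKM in DKO. Ctsl, a cysteine protease, was at 129, 128 and 128 FPKM and 363, 351 and 345 FPKM, respectively. In both cases the 3 DKO values were within a narrow band far above the controls. The log2 fold change of Hexa was 1.89 ± 0.14 (adjusted p = 5.21e-06), and the mean of Ctsl was 2.82 times that of the controls (adjusted p = 2.49e-05). The cysteine protease Ctsb moved from 167, 157 and 160.3 FPKM to 519.6, 568 and 570.4 FPKM (log2 fold change 1.81 ± 0.17, adjusted p = 4.77e-05). Lgmn, the asparaginyl endopeptidase that processes cathepsins, moved from 439, 393 and 405 FPKM to 868, 980.1 and 969.6 FPKM (log2 fold change 1.23 ± 0.13). Ctsd, the main aspartic protease of the lysosome, moved from 180.1, 163 and 174 FPKM to 321, 360.5 and 371 FPKM (log2 fold change 1.06 ± 0.15). For each of these 5 enzymes all DKO kidneys lay above all controls. Psap encodes prosaposin, the precursor of the saposins that present sphingolipids to their hydrolases. It had the largest fold change of the lysosomal genes, with 525, 492 and 452 FPKM in the controls and 2390, 2377 and 1795 FPKM in DKO (log2 fold change 2.20 ± 0.20, adjusted p = 3.02e-05).

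Membrane proteins, the proton pump and the sorting machinery also held increased genes, where 10.2% of all genes were increased. Of 16 membrane proteins and transporters 7 rose, among them Lamp1, the most abundant protein of the lysosomal membrane, from 489, 464 and 434 FPKM to 677, 699 and 795 FPKM (log2 fold change 0.68 ± 0.11, adjusted p = 0.00267). Of 9 listed subunits of the proton pump (V-ATPase), Atp6v0c not among them, 4 rose, and Atp6v0a1 did so by a log2 fold change of 1.30 ± 0.16, from 9.55, 8.14 and 9.38 FPKM to 22.1, 20.8 and 22 FPKM. Of 11 lipid hydrolases, phosphatases and cofactors 3 rose (Psap, Npc2 and Gm2a). In sorting, 4 of 21 genes rose, where 10.2% of all genes did. Gnptab, the enzyme that adds the mannose 6-phosphate signal, had a log2 fold change of 0.96 ± 0.18 (adjusted p = 0.00537). The mannose 6-phosphate receptor Igf2r rose from 12.8, 13.5 and 13.5 FPKM to 23, 20.7 and 25.7 FPKM (log2 fold change 0.84 ± 0.15). The other sorting genes that rose were Gga2 and Ap1b1. The call of Gga2 was lost without DKO 1, DKO 3, control 1 or control 3, and that of Ap1b1 without any 1 of the 6 libraries. Cd68, a lysosomal glycoprotein that is also a macrophage marker, had a log2 fold change of 1.56 ± 0.28 (adjusted p = 0.00409). The summed level of 16 macrophage markers was 116 to 151 FPKM in the controls and 133 to 201 FPKM in DKO, and their part in the lysosomal values was not tested.

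Because the MiT/TFE factors bind E-boxes, windows before the increased lysosomal genes were read for the letters CACGTG, which read the same on both strands. The windows are the 250 bases before the annotated start, from RefSeq on GRCm38.p6. Whether that start is the one used in kidney was not tested. A window may therefore differ from the promoter in use, and a match in it is not shown to be a promoter E-box. For the 4 increased proteases whose window holds these letters the window is shown, in lower case with CACGTG in capitals. That of Ctsl is chr13:64370521-64370770 (minus strand), with the match 236 bases before the start. That of Lgmn is chr12:102439093-102439342 (minus strand), with the match 49 bases before it. That of Ctsd is chr7:142387828-142388077 (minus strand), with matches 245 and 98 bases before it. That of Ctsa, the protective protein of the galactosidase complex, is chr2:164833523-164833772 (plus strand), with the match 12 bases before it.
Ctsl: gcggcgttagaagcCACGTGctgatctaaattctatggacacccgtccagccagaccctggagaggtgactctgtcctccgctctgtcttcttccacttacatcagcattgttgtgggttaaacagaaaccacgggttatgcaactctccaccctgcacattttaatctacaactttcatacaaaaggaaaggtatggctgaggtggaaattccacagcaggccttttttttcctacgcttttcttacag
Lgmn: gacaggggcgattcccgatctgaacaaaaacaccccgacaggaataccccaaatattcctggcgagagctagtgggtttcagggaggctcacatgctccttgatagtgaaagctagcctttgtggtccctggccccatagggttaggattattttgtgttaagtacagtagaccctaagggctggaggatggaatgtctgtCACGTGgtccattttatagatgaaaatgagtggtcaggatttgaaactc
Ctsd: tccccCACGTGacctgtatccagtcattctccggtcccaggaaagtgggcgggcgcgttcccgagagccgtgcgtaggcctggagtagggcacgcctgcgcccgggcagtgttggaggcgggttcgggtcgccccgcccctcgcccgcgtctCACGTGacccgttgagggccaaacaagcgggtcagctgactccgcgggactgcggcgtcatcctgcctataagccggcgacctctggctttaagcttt
Ctsa: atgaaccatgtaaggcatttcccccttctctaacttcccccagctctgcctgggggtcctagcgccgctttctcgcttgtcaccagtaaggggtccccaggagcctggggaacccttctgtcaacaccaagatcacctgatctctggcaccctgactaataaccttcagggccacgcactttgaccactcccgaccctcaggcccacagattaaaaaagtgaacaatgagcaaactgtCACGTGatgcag
The letters were in the window of 11 of the 31 increased lysosomal genes that had a window (35.5%). They were in that of 9 of the 43 lysosomal genes that were not called (20.9%). Of the 6203 genes with a window that reached the FPKM minimum, 10.6% held them. Within the increased genes the median log2 fold change was 0.70 with the letters and 0.71 without them.

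Another list holds the MiT/TFE factors and the Rag genes that connect the lysosome to mTORC1. Of its 13 genes that reached the FPKM minimum, 6 rose and 1, Tfeb, fell, where 10.2% and 4.73% of all genes did. With a library left out 3 to 5 rose, where 6.26% to 7.19% of all genes did. Tfec, the MiT/TFE member with the narrowest tissue range, rose from 2.99, 2.72 and 2.18 FPKM to 5.25, 5.33 and 6.05 FPKM (log2 fold change 1.12 ± 0.17, adjusted p = 0.00121). Tfe3 was at 3.77, 3.91 and 4.07 FPKM in the controls and 4.86, 4.55 and 4.82 FPKM in DKO (log2 fold change 0.31 ± 0.10, adjusted p = 0.0768). Neither Tfe3 nor Mitf (log2 fold change -0.31 ± 0.17, adjusted p = 0.302) passed the test, although the Tfe3 values did not overlap. Of the Rag GTPases, Rragc rose from 25.2, 26.4 and 22.6 FPKM to 34.8, 34 and 34.7 FPKM (log2 fold change 0.52 ± 0.10, adjusted p = 0.00498). Rragd rose from 14.6, 15.6 and 13.6 FPKM to 21.2, 25.3 and 24.2 FPKM (0.73 ± 0.14, adjusted p = 0.0053), and the groups did not overlap for either gene. Rragc was at 56, 49.8 and 45.3 FPKM in Tsc2 KO, and DKO minus Tsc2 KO came to -0.57 on the log2 scale (adjusted p = 0.00451). Of the mTORC1 list, 3 of 10 genes rose, where 10.2% of all genes did. Tsc1 was among them, but lost its call when any library other than control 2 was left out, with the replicate block and with sex as a covariate. Eif4ebp1, which encodes the translation repressor and mTORC1 substrate 4E-BP1, had a log2 fold change of 0.88 ± 0.12 (adjusted p = 0.000535), and Ulk1, the kinase that starts autophagy, of 0.49 ± 0.09 (adjusted p = 0.00587). Of 27 autophagy genes 7 rose, with a median of 0.17 on the log2 scale over the list. That is 25.9% of the list, where 10.2% of all genes rose. With a library left out 3 or 4 were called, which is 10.7% to 14.8% of the list where 6.26% to 7.19% of all genes rose. Sqstm1, the cargo receptor p62, rose from 139, 133 and 142 FPKM to 258, 252 and 257 FPKM (log2 fold change 0.93 ± 0.12, adjusted p = 0.000418). Vps18, a subunit of the complexes that fuse vesicles with the lysosome, rose from 8.16, 7.92 and 7.52 FPKM to 14.1, 13.1 and 16.3 FPKM (0.92 ± 0.11, adjusted p = 0.000204).

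Targets of ATF4, the transcription factor of the integrated stress response that mTORC1 also raises, were among the lists with the highest median, 0.84 on the log2 scale over 31 genes. Of the 21 that reached the FPKM minimum, 10 rose (7 to 10 with a library left out), where 10.2% of all genes did (6.26% to 7.19% with a library left out). All 4 transcription factors of the list rose, Atf4, Atf5, Cebpb and Ddit3, but the call of Atf4 was lost without DKO 2, DKO 3, control 1 or control 3 and that of Atf5 without DKO 1 or control 1. Ddit3, which encodes the stress factor CHOP, was at 6.56, 6.56 and 6.57 FPKM in the controls and 18.2, 17.7 and 12.9 FPKM in DKO (log2 fold change 1.35 ± 0.16, adjusted p = 0.000218). Among enzymes, Psat1, the transaminase of serine synthesis, rose from 6.52, 7.19 and 7.77 FPKM to 28.6, 23.8 and 27.9 FPKM (1.94 ± 0.20, adjusted p = 9.90e-05). Mthfd2, the mitochondrial folate enzyme, rose from 2.31, 2.53 and 2.67 FPKM to 7.46, 5.64 and 5.75 FPKM (1.37 ± 0.24, adjusted p = 0.00393). The lowest DKO value exceeded the highest control value by more than 2-fold for both genes. Ddit4, whose product REDD1 restrains mTORC1 under stress, was at 15.2, 13.6 and 16.1 FPKM and 58.7, 52.9 and 45.7 FPKM (1.85 ± 0.22, adjusted p = 0.000241). The stress-induced chromatin factor Nupr1 was at 8.9, 8.67 and 11.3 FPKM and 53.1, 37.3 and 30.6 FPKM (2.11 ± 0.24, adjusted p = 0.000215), and DKO 3 was the lowest of the DKO kidneys for both.

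In lipid synthesis 11 of 21 sterol genes rose, and 2 of 12 fatty acid genes did (Fads1 and Elovl1), where 10.2% of all genes rose. The median log2 fold change of the sterol genes was 0.75 and that of the fatty acid genes 0.25. Sqle, which carries out the first oxygenation of sterol synthesis, was at 9.19, 7.75 and 7.45 FPKM in the controls and 35, 31 and 25 FPKM in DKO (log2 fold change 1.94 ± 0.23, adjusted p = 0.000218). The lowest DKO kidney was above the highest control by more than 2-fold. Nsdhl, a late enzyme of the pathway, was at 21.7, 18.7 and 18.8 FPKM and 41.1, 39.9 and 45.9 FPKM (1.14 ± 0.18, adjusted p = 0.00179). Sc5d, the sterol C5 desaturase, was at 7.9, 9.64 and 7.39 FPKM and 18.4, 15.1 and 19.6 FPKM (1.13 ± 0.14, adjusted p = 0.000279). The groups were apart for both, as they were for Mvd, which makes isopentenyl diphosphate (32.1, 32.3 and 26.8 FPKM, then 47.1, 44.8 and 42.9 FPKM, 0.60 ± 0.09, adjusted p = 0.00154). Sc5d was higher in DKO than in Tsc2 KO kidneys (11.2, 12 and 9.41 FPKM), by a log2 difference of 0.68 (adjusted p = 0.00987), and so was Mvd (0.34, adjusted p = 0.0384).

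Of the genes of glycolysis, the pentose phosphate pathway and the response to hypoxia, 10 of 30 rose and 1 fell, where 10.2% and 4.73% of all genes did. With a library left out 3 to 6 rose (10% to 19.4%, where 6.26% to 7.19% of all genes did), the fewest (3) without control 1 or control 2. Ndrg1, a hypoxia-induced gene, rose from 136, 125 and 219 FPKM to 355, 407 and 503 FPKM (log2 fold change 1.43 ± 0.24, adjusted p = 0.00303). The glycolytic mutase Pgam1 rose from 99.3, 92.5 and 90 FPKM to 134, 155 and 145 FPKM (0.66 ± 0.12, adjusted p = 0.00511). The gene that fell, Pdk1, a kinase that limits entry of pyruvate into mitochondria, had a log2 fold change of -1.17 ± 0.29 (adjusted p = 0.0239). Its adjusted p was 0.063 to 0.0894 when any library other than control 3 was left out. In the antioxidant and iron list 6 of 20 genes rose (30%, where 10.2% of all genes did). With a library left out 2 to 4 rose, which is 10% to 19% of the list where 6.26% to 7.19% of all genes rose. Hmox1, the heme oxygenase, had the largest fold change of the called genes there, from 14.3, 11.9 and 13.3 FPKM to 89.9, 114 and 72.3 FPKM (2.85 ± 0.20, adjusted p = 4.96e-06). Srxn1, which repairs oxidized peroxiredoxins, rose from 28.6, 27.2 and 24.8 FPKM to 44.7, 50.3 and 41 FPKM (0.79 ± 0.11, adjusted p = 0.000813). Nqo1, a textbook target of NRF2, went the other way, from 45.4, 41.8 and 45.8 FPKM to 27.8, 23.8 and 25.7 FPKM (-0.75 ± 0.16, adjusted p = 0.0124). The adjusted p of Nqo1 was 0.0632 without DKO 2 and 0.0519 without DKO 3.

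**Figure D2:**
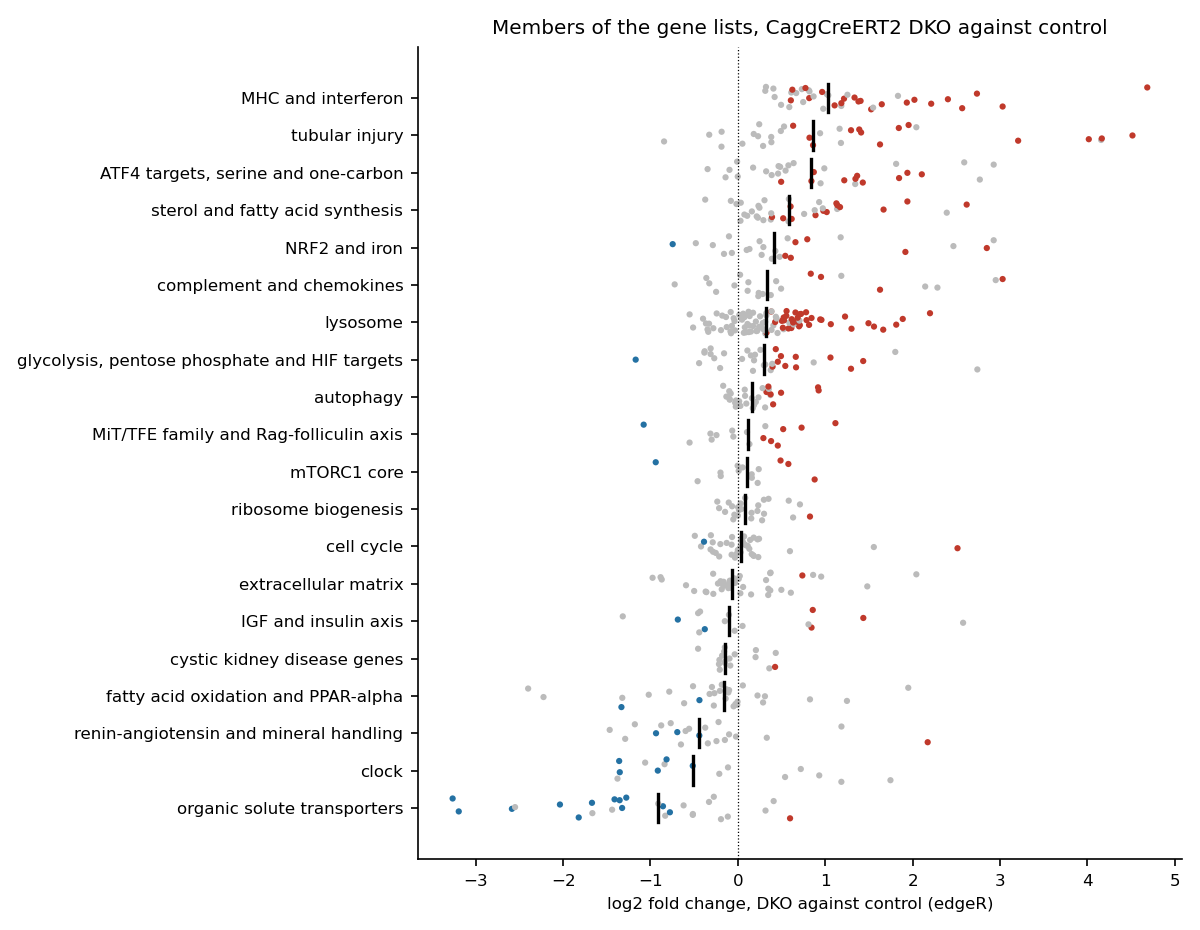
Log2 fold change of DKO against control (edgeR) for each fitted member of 20 gene lists, sorted by the list's median (black bar). Red points are members called increased, blue points members called decreased and grey points members that were not called. The medians run from 1.04 for the MHC and interferon genes to -0.91 for the organic solute transporters.

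The 10 protein-coding genes with the largest increase whose groups did not overlap had varied functions. Aqp8, an aquaporin, was at 0.258, 0.355 and 0.612 FPKM in the controls and 95.2, 58.5 and 118 FPKM in DKO (log2 fold change 7.82 ± 0.58, adjusted p = 6.59e-06). It was nearly absent from control kidneys and lower in Tsc2 KO (12.2, 10.6 and 4.3 FPKM) than in DKO (log2 difference 3.30, adjusted p = 0.00101). Nccrp1, an F-box-associated protein, was at 0.114, 0.0667 and 0.186 FPKM in the controls and 33.7, 31.9 and 33.6 FPKM in DKO (8.08 ± 0.48, adjusted p = 1.44e-06). It was also at 28.7, 48.1 and 32.5 FPKM in Tfeb KO and at no more than 0.488 FPKM in Tsc2 KO. Thus Nccrp1 was high in DKO and Tfeb KO and low in control and Tsc2 KO. In untreated KspCre mice it was at 0.125, 0.379 and 56.3 FPKM in the controls and 20.1, 1.87 and 24.6 FPKM in DKO (log2 fold change -0.29, adjusted p = 0.959), with overlapping groups. In vehicle-treated KspCre mice the log2 fold change was 5.14 (adjusted p = 0.109), with every DKO above every control kidney. Ttr, the carrier of thyroxine and of retinol-binding protein, rose from 101, 78.3 and 79.4 FPKM to 1318, 1654 and 3659 FPKM (4.72 ± 0.45, adjusted p = 5.36e-05), and was highest in DKO 3. Ptgds, the prostaglandin D2 synthase, rose from 13.3, 11.1 and 18.6 FPKM to 498, 378 and 277 FPKM (4.78 ± 0.33, adjusted p = 3.64e-06). The homeobox gene Nkx6-2 (0, 0.134 and 0 FPKM, then 8.2, 10.1 and 6.1 FPKM) and the interferon-induced ubiquitin-like gene Ubd (0.376, 0.164 and 0.244 FPKM, then 5.99, 9.69 and 4.32 FPKM) rose from near 0. Rnase1, a secreted ribonuclease with close paralogs, had at most 3 counts in each control and 9.86, 11.6 and 13.3 FPKM in DKO. Hmga1b is described with its copy below. Cidea, of lipid droplets, was at 0.0501, 0.614 and 0.195 FPKM in the controls and 10.5, 0.636 and 49.6 FPKM in DKO (adjusted p = 0.0466), and Ucp1, the uncoupling protein of brown fat, at 0, 0.468 and 0.174 FPKM and 3.14, 0.618 and 13.7 FPKM (adjusted p = 0.0384). DKO 2 was barely above control 2 for both genes, and both calls were lost when any library other than DKO 2 was left out. Summed adipocyte markers were 6.06, 352 and 169 FPKM in the controls and 73.9, 60.7 and 761 FPKM in DKO. These sums varied between kidneys of both groups, and the part of fat in these calls was not tested.

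Of 27 genes of tubular injury 13 rose (48.1%, where 10.2% of all genes did), and the median of the list was 0.86 on the log2 scale. With a library left out 6 to 13 rose (26.1% to 48.1%, where 6.26% to 7.19% of all genes did), the fewest without DKO 1. The fibrinogen chains Fgg and Fga, made by injured tubules, were at 3.62, 3.07 and 2.91 FPKM and 5.9, 4.22 and 4.21 FPKM in the controls. In DKO they were at 56.6, 51.2 and 43.3 FPKM and 48.7, 40.1 and 40 FPKM, with log2 fold changes of 4.02 ± 0.25 (adjusted p = 2.02e-06) and 3.21 ± 0.25 (adjusted p = 9.31e-06). All 3 DKO kidneys had at least 6-fold the highest control level of both chains. Spp1, the secreted phosphoprotein osteopontin, rose from 1683, 1346 and 1592 FPKM to 5882, 6393 and 3838 FPKM (1.84 ± 0.22, adjusted p = 0.000279). Vcam1, an adhesion molecule of failed tubular repair, rose from 1.64, 1.22 and 1.14 FPKM to 6.92, 4.54 and 3.6 FPKM (1.95 ± 0.29, adjusted p = 0.00129). Without DKO 1 its mean was under the FPKM minimum (log2 fold change 1.65, adjusted p 0.00565). Havcr1, the proximal tubule injury marker KIM-1, and the cell cycle inhibitor Cdkn1a (p21) also rose. Havcr1 was at 4.01, 1.86 and 5.39 FPKM in the controls and 94.9, 55.2 and 45.9 FPKM in DKO (4.17 ± 0.84, adjusted p = 0.00784). Cdkn1a was at 3.13, 2.66 and 4.74 FPKM and 20.5, 19.7 and 18.4 FPKM (2.51 ± 0.23, adjusted p = 3.89e-05).

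All 41 fitted genes of antigen presentation and the interferon response had a log2 fold change above 0 in DKO, with a median of 1.04, and 21 of the 31 that reached the FPKM minimum rose (13 to 19 with a library left out), where 10.2% of all genes did. This list was drawn up after the values had been seen, so its counts describe these kidneys and are no independent evidence of a direction. By role, 5 of 8 genes of MHC class I, 5 of 7 of MHC class II and 11 of 16 of the interferon response rose. B2m, the light chain of class I molecules, was at 319, 359.7 and 349 FPKM in the controls and 905, 1115 and 861 FPKM in DKO (log2 fold change 1.53 ± 0.20, adjusted p = 0.000438). Cd74, the invariant chain that guides class II molecules, was at 88.4, 95.9 and 90.7 FPKM and 558, 720.2 and 307 FPKM (2.57 ± 0.37, adjusted p = 0.00108). The groups were far apart for both, with DKO 2 the highest and DKO 3 the lowest of the DKO kidneys. Cxcl10, the interferon-induced chemokine that attracts T cells, was at 2.12, 2.11 and 1.99 FPKM in the controls and 15.6, 24.1 and 9.8 FPKM in DKO (3.03 ± 0.33, adjusted p = 0.000132). Oasl1, an antiviral gene, was at 1.09, 1.02 and 1.09 FPKM and 7.01, 8.13 and 5.67 FPKM (2.74 ± 0.23, adjusted p = 2.06e-05). Tsc2 KO kidneys had 2.01, 3.82 and 2.39 FPKM of Cxcl10 and 2.46, 2.96 and 1.74 FPKM of Oasl1. Both genes were higher in DKO than in Tsc2 KO, by log2 differences of 2.57 (adjusted p = 0.000827) and 1.51 (adjusted p = 0.00195). Of 31 genes that reached the FPKM minimum in DKO or Tsc2 KO, 5 were called higher in DKO, where 6.91% of 7906 genes were called higher and 7.56% lower. All 5 were among the 16 interferon response genes, and 0 of 8 class I and 0 of 7 class II genes were called higher. The median log2 differences of DKO to Tsc2 KO were 0.63 (interferon response), 0.005 (class I) and 0.23 (class II). Over the whole list the median log2 fold change against control was 0.63 in Tsc2 KO and 0.48 in Tfeb KO. Summed markers of T cells were 4.06 to 5.06 FPKM in the controls and 4.65 to 7.76 FPKM in DKO. Those of B cells were 7.16 to 10.8 FPKM and 7.46 to 8.86 FPKM, and those of neutrophils 0.737 to 3.11 FPKM and 3.16 to 3.58 FPKM. The T and B cell sums overlapped between the groups, although 7 of 8 T cell markers lay above 0 in DKO, with a median of 0.73 on the log2 scale. Of the macrophage markers Cd68 and Cd14 rose (2 of 9, where 10.2% of all genes did), while Adgre1, the F4/80 antigen, had a log2 fold change of -0.12 ± 0.42 (adjusted p = 0.909). Of the 16 macrophage markers 12 lay above 0, with a median of 0.21. The part of these cells in the interferon genes was not tested. MHC genes have near-identical copies, so the split of reads among them is uncertain.

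Among 24 transporters with which the proximal tubule takes up and secretes organic solutes, 12 fell (10 to 12 with a library left out) and 1 rose, against 4.73% and 10.2% of all genes. The gene that rose, Abcc4, an exporter of organic anions, lost its call when any library other than DKO 2 was left out, with the replicate block and with sex as a covariate. The median log2 fold change was -0.91, and this list too was added after the values had been seen. Slc22a6 (OAT1), the basolateral importer of organic anions and drugs, was at 124, 113 and 92.6 FPKM in the controls and 28.4, 21.4 and 28.3 FPKM in DKO, a log2 fold change of -2.04 ± 0.15 (adjusted p = 6.59e-06). All DKO kidneys lay far below all controls, and Tsc2 KO kidneys lower still, at 3.42, 3.42 and 4.5 FPKM (log2 difference of DKO to Tsc2 KO 2.76, adjusted p = 3.79e-06). Its neighbor in function Slc22a8 (OAT3) was at 218, 196 and 209 FPKM and 50.8, 60.1 and 79.5 FPKM (-1.67 ± 0.34, adjusted p = 0.00781). Slc22a22, a carrier of prostaglandins, was at 44.8, 20.1 and 19.5 FPKM and 3.17, 1.35 and 4.38 FPKM (-3.19 ± 0.48, adjusted p = 0.00136). Slc7a13, an amino acid transporter that is higher in males, was at 9.82, 8.58 and 13.1 FPKM and 1.29, 0.975 and 0.911 FPKM (-3.26 ± 0.44, adjusted p = 0.000549). The female kidney DKO 3 was the lowest for Slc7a13, and the male kidneys DKO 1 and DKO 2 also lay below all controls. With sex as a covariate Slc7a13, Slc22a22 and Slc22a6 were still called. Slc7a12, a related transporter that is higher in females, fell too, from 70.4, 54 and 44.5 FPKM to 24.2, 21 and 16.4 FPKM (-1.41 ± 0.16, adjusted p = 0.000217). Kl, the co-receptor Klotho of the phosphate hormone FGF23, fell from 109, 106 and 106 FPKM to 53.6, 58.7 and 50.8 FPKM (-0.94 ± 0.20, adjusted p = 0.0105).

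In a whole kidney, fewer cells of a type and less RNA of a gene per cell cannot be told apart, and the markers of several epithelial cell types moved with these genes. The summed level of 18 proximal tubule markers was 14552 to 16156 FPKM in the controls and 8006 to 9737 FPKM in DKO. The androgen-responsive gene Kap took a large share of these sums, with 9078, 8000 and 9269 FPKM in the controls and 3358, 3806 and 3260 FPKM in DKO (log2 fold change -1.30 ± 0.85, adjusted p = 0.403). Without it the sums were 6245 to 7077 FPKM in the controls and 4649 to 6477 FPKM in DKO, which overlap. Single markers differed in size and direction. G6pc, the last step of glucose release, rose from 105, 145 and 107 FPKM to 237, 273 and 406 FPKM (1.40 ± 0.33, adjusted p = 0.018). The endocytic receptor Lrp2 had a log2 fold change of -0.22 ± 0.19 (adjusted p = 0.547) and the phosphate transporter Slc34a1 of -0.37 ± 0.26 (adjusted p = 0.431). The call of G6pc was lost without DKO 3, control 1 or control 3. The sums of the thick limb and distal convoluted tubule (1810 to 2194 FPKM in the controls, 1389 to 1532 FPKM in DKO), of principal cells (826 to 994 FPKM and 566 to 784 FPKM), of intercalated cells (506 to 533 FPKM and 300.1 to 390 FPKM) and of podocytes (202 to 222 FPKM and 134 to 138 FPKM) did not overlap between the groups. Those of endothelial cells (295 to 329 FPKM and 252 to 319 FPKM) and of fibroblasts and pericytes (158 to 253 FPKM and 161 to 213 FPKM) did. The part of cell composition in the decreased genes was not tested.

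**Figure D3:**
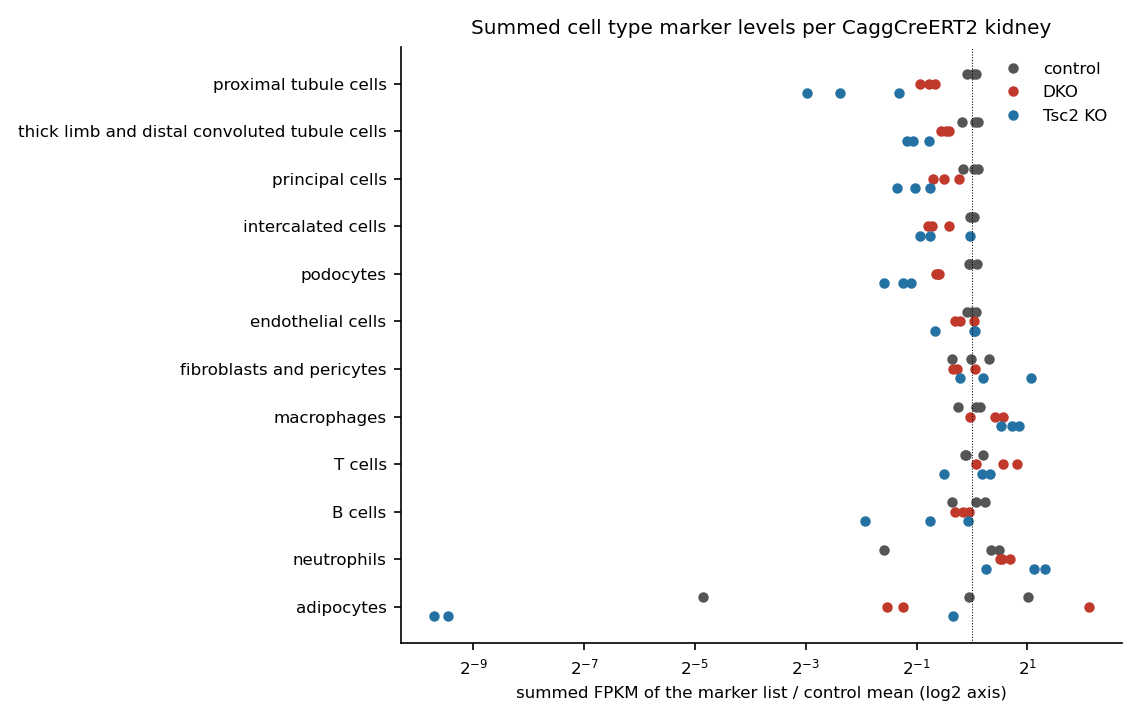
Summed FPKM of the markers of 12 cell types in each control, DKO and Tsc2 KO kidney of the CaggCreERT2 cohort, divided by the mean of the controls (log2 axis); each point is a kidney. Epithelial cell types and podocytes lie below the controls in DKO, endothelial, stromal, macrophage, T cell and B cell sums overlap the controls, neutrophil sums lie just above them at a low level, and adipocyte markers spread over the widest range in every group.

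In the distal nephron, Pvalb, the calcium buffer of the early distal convoluted tubule, fell from 36.6, 37.7 and 37.2 FPKM to 5.31, 6.28 and 7.98 FPKM (log2 fold change -2.47 ± 0.43, adjusted p = 0.00355). It was lower still in Tsc2 KO, at 0, 0.658 and 1.36 FPKM, and DKO minus Tsc2 KO came to 3.29 on the log2 scale (adjusted p = 0.00451). The potassium channels Kcnj10 and Kcnj1 (ROMK) fell from 27.9, 25.7 and 21.4 FPKM and 122, 125 and 108 FPKM. In DKO they were at 12.3, 12.7 and 12.3 FPKM and 56.7, 72.5 and 60.3 FPKM, with log2 fold changes of -0.97 ± 0.16 (adjusted p = 0.00225) and -0.86 ± 0.18 (adjusted p = 0.00903). Umod, the most abundant product of the thick limb, had a log2 fold change of -0.15 ± 0.18 (adjusted p = 0.689). Of 6 podocyte genes that reached the FPKM minimum 4 fell, where 4.73% of all genes did. Cdkn1c, the cell cycle inhibitor p57 of mature podocytes, fell from 26.6, 29 and 33.2 FPKM to 15.7, 12.7 and 13.8 FPKM (-1.03 ± 0.20, adjusted p = 0.00553). Nphs1, which encodes the slit diaphragm protein nephrin, was at 11.5, 9.56 and 11.5 FPKM and 5.52, 6.2 and 6.02 FPKM (-0.84 ± 0.19, adjusted p = 0.0162) and at 1.74, 2.55 and 3.36 FPKM in Tsc2 KO. Its call was lost without DKO 1, DKO 3, control 1 or control 3, and that of Podxl, a sialoprotein of the podocyte surface, without any 1 of the 6 libraries.

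In the renin-angiotensin and mineral list 1 of 20 genes rose and 3 fell, where 10.2% and 4.73% of all genes did. The gene that rose was Agt, angiotensinogen, from 44.4, 39.2 and 39.1 FPKM to 154, 232 and 152 FPKM (log2 fold change 2.17 ± 0.20, adjusted p = 3.67e-05), with the lowest DKO kidney at more than 3-fold the highest control. Mme (neprilysin), a peptidase that degrades angiotensins at the brush border, fell from 22.3, 23 and 18.8 FPKM to 13.8, 12.6 and 12.1 FPKM (-0.69 ± 0.13, adjusted p = 0.00463). Enpep (aminopeptidase A), of the same role, fell from 54.8, 57 and 50.1 FPKM to 38.6, 39 and 38.3 FPKM (-0.44 ± 0.09, adjusted p = 0.00939). The third gene that fell was Kl.

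The other genes with the largest decrease had roles in metabolism and transport. Akr1c21, a steroid dehydrogenase, was at 440.0, 374 and 243 FPKM in the controls and 62.6, 54.9 and 93.1 FPKM in DKO (log2 fold change -2.29 ± 0.36, adjusted p = 0.00169). The log2 fold changes of the rest are given in brackets, for the organic anion transporter gene Slc22a28 (-2.59 ± 0.40), the N-acetyltransferase gene Nat8f6 (-2.54 ± 0.48), the potassium channel subunit Kcne1l (-2.72 ± 0.41), Sugct, which handles glutarate (-2.61 ± 0.61), and Hpd of tyrosine breakdown (-2.31 ± 0.57). Without control 3 the mean of Kcne1l fell under the FPKM minimum (log2 fold change -2.59). Sugct was at 27.6, 24.7 and 23.1 FPKM in the controls and 1.66, 1.59 and 8.79 FPKM in DKO, and its call was lost without DKO 1, DKO 2 or control 1 (adjusted p from 0.052 to 0.0667). Hpd was at 48.8, 72.3 and 25 FPKM and 8.59, 8.42 and 11.7 FPKM, and its call was lost without any one library other than control 3 (adjusted p from 0.063 to 0.0967). Akr1c21 kept its call with each library left out in turn.

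Among the called protein-coding genes the largest decrease was that of Atp6v0c, which encodes the proteolipid ring of the V-ATPase, from 31.6, 30 and 33.3 FPKM in the controls to 2.06, 2.29 and 2.7 FPKM in DKO (log2 fold change -3.72 ± 0.12, adjusted p = 8.89e-09). It came with an increase of Atp6v0c-ps2, a processed copy on chromosome 6, from 4.14, 3.84 and 2.45 FPKM to 347, 379 and 382 FPKM. The sequences are near-identical, so the split of reads between them is uncertain. The copy held 0.998% to 1.77% of the reads of the pair in the controls and 95.1% to 95.9% in DKO, 95.8% to 96.7% in Tsc2 KO and 0.774% to 2.27% in Tfeb KO. In untreated KspCre mice it held 55.9% to 88.3% in the controls and 91.8% to 93.3% in DKO. With vehicle it held 88.0% to 91.9% in the KspCre controls, whose Tsc2 level was 8.59 to 9.81 FPKM, and 92.9% to 95.4% in DKO. The share was thus high in both CaggCreERT2 groups with floxed and deleted Tsc2, and also in KspCre controls. Summed over the pair, reads came to 98.3, 97.0 and 106 CPM (counts scaled to a common library total) in the controls and 159, 164 and 165 CPM in DKO, so that the sum was higher, not lower, in every DKO kidney. Another pair, Hmga1 and Hmga1b, shifted to a smaller degree. Hmga1b, called increased with a log2 fold change of 6.23 ± 0.40, took 0.211% to 1.39% of the reads of the pair in the controls and 38.2% to 46.6% in DKO, while the sum was 22.7 to 23.4 CPM in the controls and 26.0 to 33.6 CPM in DKO.

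**Figure D4:**
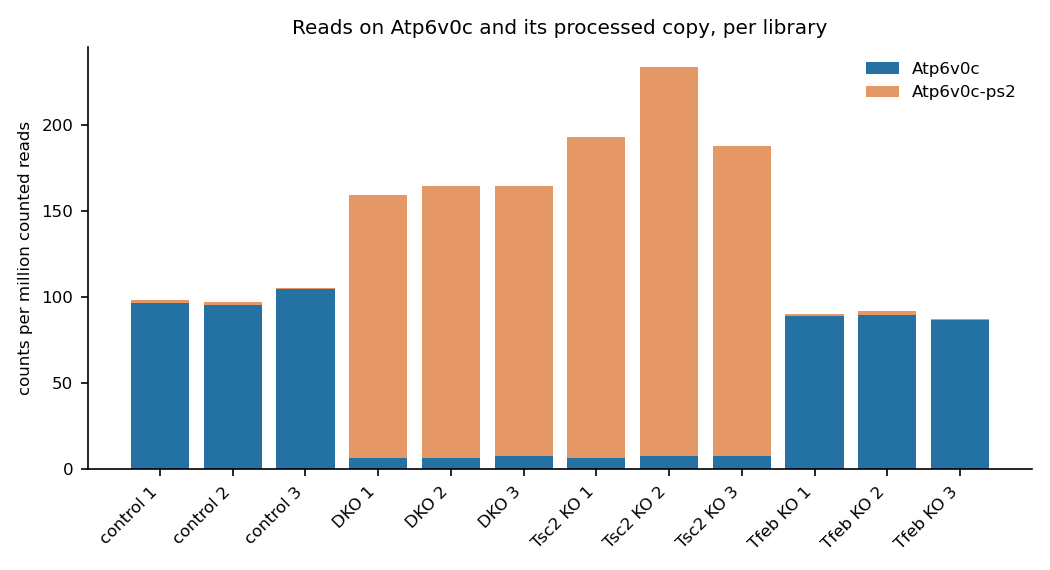
Reads (CPM, linear axis from 0) on Atp6v0c (blue) and its processed copy Atp6v0c-ps2 (orange), stacked, for each of the 12 CaggCreERT2 libraries. Nearly all reads are on Atp6v0c in control and Tfeb KO libraries and on the copy in DKO and Tsc2 KO libraries, and the summed height is 97.0 to 106 in control and 159 to 165 in DKO.

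In 5 other lists 1 or 2 genes were called in DKO against control, where 10.2% of all genes rose and 4.73% fell. In the 4 lists with a gene that rose its share was 3.33% (extracellular matrix) to 8.33% (cystic kidney disease). Of the cell cycle genes 5.88% fell, and of the fatty acid oxidation genes 7.14%. Of 30 extracellular matrix genes 1 was called, the growth factor gene Tgfb1 (log2 fold change 0.74 ± 0.20, adjusted p = 0.0328), and the median was -0.06. Of 17 cell cycle genes that reached the FPKM minimum Cdkn1a rose and the replication helicase subunit Mcm6 fell (-0.39 ± 0.11, adjusted p = 0.0416), and the median of 39 genes was 0.03. Both Tgfb1 (0.0657 to 0.116) and Mcm6 (0.064 to 0.169) had an adjusted p above the threshold with each library left out. Mki67, the proliferation antigen, was at 5.65, 4.28 and 5.68 FPKM in the controls and 4.8, 4.99 and 5.8 FPKM in DKO, with overlapping groups (0.04 ± 0.31, adjusted p = 0.962). Against Tsc2 KO, 8 of 24 cell cycle genes were lower in DKO, where 7.56% of all genes were, and the median difference was -0.55. By role these were 7 of 9 S phase genes and 1 of 5 inhibitors and D cyclins, while the 10 mitosis genes did not pass the test. Of 12 genes mutated in cystic kidney disease 1 was called, the chaperone gene Dnajb11 (0.43 ± 0.09, adjusted p = 0.00949). Its adjusted p was 0.058 without DKO 2 and 0.0531 without control 3. Of 16 genes of ribosome production 1 was called, the transcription factor gene Myc, with 3.45, 3.25 and 3.66 FPKM in the controls and 6.87, 6.74 and 4.26 FPKM in DKO (0.83 ± 0.20, adjusted p = 0.019). That p was 0.0716 to 0.0837 without DKO 1, DKO 2, control 1 or control 2. Of 28 genes of fatty acid oxidation 2 fell. Cpt1a, which lets fatty acids into mitochondria, had a log2 fold change of -0.44 ± 0.09 (adjusted p = 0.0102, or 0.0525 without DKO 1). The peroxisomal thiolase gene Acaa1b had one of -1.33 ± 0.39 (adjusted p = 0.0485, or 0.0939 to 0.158 with a library left out).

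DKO was also set against Tsc2 KO, a contrast that shares the DKO libraries with the one above and in which 6.91% of all genes were higher and 7.56% lower in DKO. By Xist, Tsc2 KO 1 and 3 were female and Tsc2 KO 2 male, and with sex as a covariate the 598 genes lower in DKO became 379. With a library left out the lower genes numbered 193 to 772, and the 546 higher genes became 242 to 776. The list counts that follow come from the fit with all libraries. Of 95 lysosomal genes 13 were lower and 4 higher in DKO than in Tsc2 KO, with a median log2 difference of -0.12. Hexa was lower in DKO (227, 279 and 221 FPKM in Tsc2 KO, log2 difference -0.57, adjusted p = 0.0177). Psap was at 2485, 2382 and 1517 FPKM in Tsc2 KO (0.01, adjusted p = 0.97), and its difference did not pass the test. Neither did those of Ctsl (-0.17, adjusted p = 0.436) and Ctsb (0.12, adjusted p = 0.698). Of 24 ATF4 targets 7 were lower and 1 higher, and Mthfd2 was at 12.3, 15.1 and 7.08 FPKM in Tsc2 KO (-0.89, adjusted p = 0.0318). Of 28 injury genes 6 were lower and 1 higher, with Fgg at 161, 91.2 and 80 FPKM (-1.16, adjusted p = 0.0073). Of 34 sterol and fatty acid genes 6 were higher and 1 lower in DKO. Sqle (36.9, 27.9 and 19.9 FPKM, 0.08, adjusted p = 0.858) and Hmox1 (86.2, 106 and 66.4 FPKM, 0.08, adjusted p = 0.837) did not pass the test. Of 20 organic solute transporters 12 were higher in DKO than in Tsc2 KO, with a median difference of 1.00.

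DKO and control were also compared in the KspCre cohorts at P50, where Cre acts in kidney epithelium. Their 6 untreated and 6 vehicle-treated kidneys share no library with the CaggCreERT2 mice. In untreated KspCre mice 179 of 7689 genes (2.33%) were increased and 120 (1.56%) decreased, and in vehicle-treated mice 415 of 7735 (5.37%) and 236 (3.05%). With a library left out, 43 to 145 were increased and 11 to 83 decreased in untreated mice. With vehicle these were 178 to 451 and 62 to 312. The overlaps that follow were counted on the fits with all libraries. Of the 809 genes increased in CaggCreERT2 DKO, 107 were also increased in untreated KspCre DKO, which is 13.2% of the first and 59.8% of the second list. With vehicle, 203 were shared, 25.1% and 48.9% of the lists. A log2 fold change above 0 was found for 86.1% of the 711 increased genes that reached the FPKM minimum in untreated KspCre mice, against 43.6% of all such genes there, and for 88.2% of 703 with vehicle, against 51.8%. For the decreased genes the overlap was 53 genes untreated (14.1% and 44.2% of the lists) and 65 with vehicle (17.3% and 27.5%). The genes increased in all 3 cohorts numbered 83 and those decreased in all 3 numbered 22. The first set held Hexa, Psap, Ctsb, Ctsd, Atp6v0a1, Ddit3, Ddit4, Hmox1, Fgg, Fga, Spp1, Cxcl10, Oasl1, Ptgds, Ttr and Aqp8. Hexa, for example, had log2 fold changes of 1.49 (adjusted p = 0.00584) and 1.56 (adjusted p = 0.000928) in untreated and vehicle-treated KspCre mice. Those of Hmox1 were 1.85 and 1.93, and those of Aqp8 5.04 and 5.36. The second set held Tsc2 and, for example, Oat, of ornithine breakdown (-0.67 in CaggCreERT2, -0.78 and -0.48 in KspCre), and Kmo, of tryptophan breakdown.

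Other values differed in size between the cohorts, and the difference of the effects was not tested. Of the lysosomal genes 12 of 92 were increased in untreated KspCre DKO, where 2.33% of all genes were, and 14 of 90 with vehicle, where 5.37% were. Agt had log2 fold changes of 0.34 (adjusted p = 0.728) and 0.24 (adjusted p = 0.73) there, and Ndrg1 of 0.00 and 0.03. Mki67 was higher in untreated KspCre DKO than in its control (2.59, adjusted p = 0.0112) without reaching the FPKM minimum. Genes called in opposite directions included Ltc4s, Efhd1, Pam and Rhcg. Rhcg, the ammonia channel of intercalated cells, fell in CaggCreERT2 DKO (-0.77 ± 0.18, adjusted p = 0.0199) and rose in vehicle-treated KspCre DKO (0.67, adjusted p = 0.0297). Its CaggCreERT2 call was lost without DKO 1, DKO 3, control 1 or control 2. The cohorts differ in Cre driver, age, controls, sex and, with vehicle, in injections. By Xist all 12 KspCre kidneys came from females. Markers of adrenal cortex were higher in vehicle-treated KspCre DKO by a median of 11.9 on the log2 scale, and their part in the values of that cohort was not tested.

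**Figure D5:**
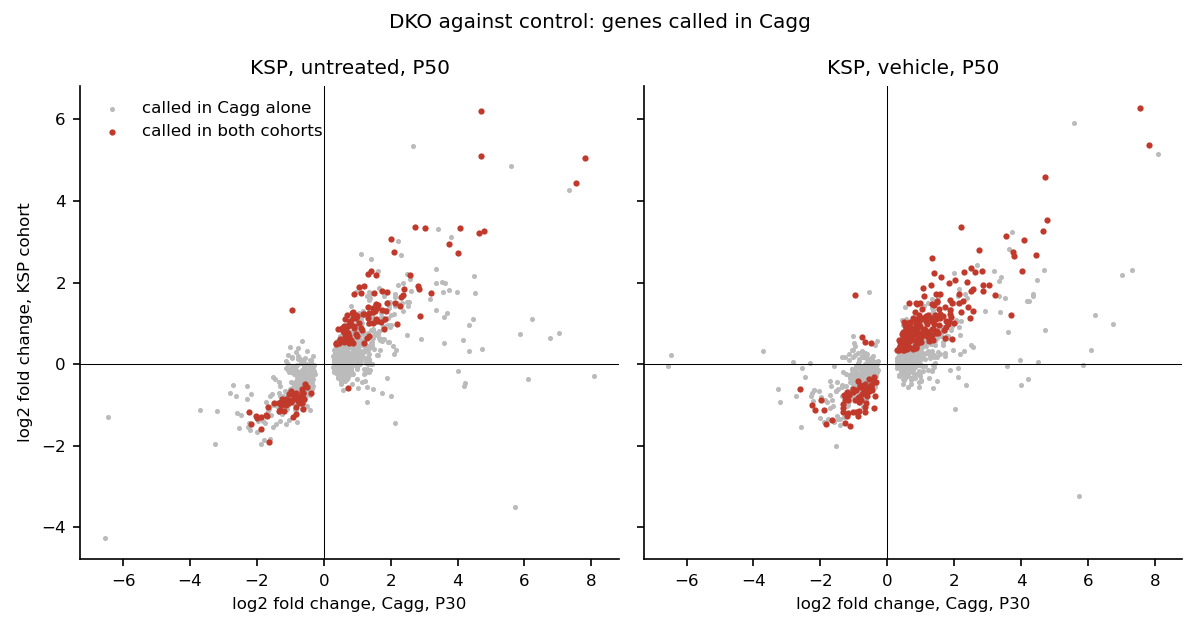
Log2 fold change of DKO against control in CaggCreERT2 mice at P30 (x axis) and in untreated (left) or vehicle-treated (right) KspCre mice at P50 (y axis), for genes called in CaggCreERT2. Red points are genes called in both cohorts; 86.1% (left) and 88.2% (right) of the genes increased in CaggCreERT2 that reached the FPKM minimum lie above 0 on the y axis.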

How the data were processed

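Per the labels, RNA of whole kidneys was captured by poly-A and made into non-directional libraries, so reads of overlapping genes on opposite strands cannot be told apart. For each cohort the authors deposited raw counts per gene and, separately, FPKM values for the same 54532 genes. The submitters' processing notes name STAR 2.6.1d, HISAT2 2.0.5, featureCounts 1.5.0-p3, DESeq2 1.20.0 and the build mm10, with no role given. Counts were tied to FPKM columns by the constant ratio described in the text, and 0 value columns were left over.

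Counts were tested in R 4.3.3 with edgeR 4.0.16 (filterByExpr with a minimum count of 10, TMM, glmQLFit and glmQLFTest). All groups of a cohort were in 1 fit, with Benjamini-Hochberg adjustment over the genes fitted. In CaggCreERT2 mice these were 4 groups and 16348 genes, and in untreated KspCre mice 16631 genes. The fit for vehicle-treated KspCre mice held all 18 kidneys of that cohort, the rapamycin-treated ones included, and 17027 genes. The p-values rest on 1 spread per gene, pooled over the 3 kidneys within each group of the fit and moderated across genes. Groups that were not compared thus also entered that spread. Since edgeR gives no SE for this test, each SE is the absolute log2 fold change divided by the square root of the test's F statistic. The scripts were tested on simulated data. The alternatives were DESeq2 1.42.0, other filters and scalings, a replicate block, sex as a covariate, and fits that leave out 1 library each. Chi-square values per gene between replicates were 20.4 to 28.1 in DKO and 17.0 to 35.7 in controls, and no library was a repeat of another.

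The members and gene lists were chosen with earlier results of these data known. The lists of MHC and interferon genes, organic solute transporters and clock genes, and the alternatives for DKO against Tsc2 KO, were added after the values were seen. Named genes are Tsc2, Tfeb, Gpnmb and Mthfd2, the 10 protein-coding genes with the largest increase and the 10 with the largest decrease whose groups do not overlap, up to 4 called genes per list and direction by adjusted p, and cell type markers by their sums. Genes outside this rule, such as Atp6v0c-ps2, Lgmn, Ctsd, Ctsa, Lamp1, Atp6v0a1, Gnptab, Tfe3, Mitf, Havcr1, Rnps1, Oat and Kmo, were chosen after their values were seen. The fold of Rnase1, whose controls had at most 3 counts each, is not given.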

Additional observations from a re-analysis of the deposited data

How the results depend on the processing

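For DKO against control in CaggCreERT2 mice, the increased genes numbered 1259 with DESeq2 on the 2 groups alone, 1 with the names of the count table and 498 to 572 with each library left out, the fewest without control 1. The decreased genes numbered 881 with DESeq2 and 826 with edgeR on the 2 groups alone, 0 with the names of the count table and 152 to 279 with each library left out, again the fewest without control 1. With the replicate block there were 698 increased genes, 687 of them shared with the 809, and 276 decreased genes, 271 shared with the 376. Same-numbered samples did not deviate together (correlations 0.004, -0.146 and -0.019), so the numbers name samples and pair none. With sex as a covariate there were 674 and 318 genes. For DKO against Tsc2 KO, higher genes numbered 873 without the FPKM minimum, 338 with the names of the count table and 242 to 776 with each library left out, and lower genes 379 with sex as a covariate and 193 to 772 with each library left out.

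In untreated KspCre mice the increased genes numbered 443 with DESeq2 on all groups, 438 with DESeq2 and 95 with edgeR on the 2 groups alone, 318 with no filter on low counts, 378 without the FPKM minimum, 87 with the FPKM minimum asked of every library, and 43 to 145 with each library left out. The decreased genes numbered 356 with DESeq2 on all groups, 474 with DESeq2 and 62 with edgeR on the 2 groups alone, 209 with no filter on low counts, 53 with the replicate block and 11 to 83 with each library left out. In vehicle-treated KspCre mice the increased genes numbered 652 with DESeq2 on all groups, 132 with edgeR on the 2 groups alone, 674 without the FPKM minimum, 256 with the FPKM minimum asked of every library and 178 to 451 with each library left out. The decreased genes numbered 465 with DESeq2 on all groups, 399 with DESeq2 and 105 with edgeR on the 2 groups alone and 62 to 312 with each library left out. The cause of these shifts was not tested.

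Of the 91 called genes named or listed by the rule, 90 lost their call with the names of the count table, 42 kept it in the 15 other alternatives, 29 lost it when a library was left out, and 0 changed sign.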

Other observations

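Genes near Tsc2 were counted separately. Within 1 Mb of Tsc2 on chromosome 17, 39 genes reached the FPKM minimum and 8 were increased and 5 decreased, 33.3% where 14.9% of all genes were called. Within 2 Mb it was 28.8% of 66 genes and within 5 Mb 21.1% of 95 genes, and within 1 Mb of Tfeb 2 of 10 genes were called (Tfeb and Foxp4). The genes called around Tsc2 include Tsc2 itself, the targeted gene, and Atp6v0c, whose split of reads with its copy is uncertain. Rnps1, a splicing factor of the exon junction complex at chr17:24414675-24425895, had the largest fall in this region apart from Atp6v0c. It was at 25.2, 23 and 25.2 FPKM in the controls, 7.45, 8.59 and 7.57 FPKM in DKO, 10.5, 11.3 and 10.5 FPKM in Tsc2 KO and 24.7, 23.6 and 24.9 FPKM in Tfeb KO (DKO against control -1.60 ± 0.10, adjusted p = 1.89e-06). DKO and Tsc2 KO were thus low, and control and Tfeb KO at one level. The floxed allele and the deletion cannot be told apart here. In KspCre mice the log2 fold change of Rnps1 was -0.79 (adjusted p = 0.351) untreated and -0.05 (adjusted p = 0.835) with vehicle. Kctd5, an adaptor of a ubiquitin ligase, rose from 9.17, 7.96 and 7.73 FPKM to 13.5, 15.9 and 14.8 FPKM (0.87 ± 0.10, adjusted p = 0.000239), and Tnfrsf12a, the receptor of the cytokine TWEAK, from 10.6, 8.43 and 8.48 FPKM to 64.9, 75.1 and 56.5 FPKM (2.88 ± 0.19, adjusted p = 2.21e-06). Tnfrsf12a also rose in both KspCre cohorts (1.18 and 1.78).

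Genes of the circadian clock, a list added after the values were seen, had log2 fold changes of both signs. Of 8 that reached the FPKM minimum 5 fell (Dbp, Hlf, Per3, Tef and Nr1d2), where 4.73% of all genes fell. The count was 2 without control 2 and 3 without DKO 3 or control 1, and 8 without control 3. The median log2 fold change of 15 genes was -0.52, and 5 of them lay above 0, up to 1.75 ± 0.16 for Bhlhe41, a repressor of the clock that did not reach the FPKM minimum (adjusted p = 3.89e-05). Dbp, a transcription factor whose level swings with time of day, was at 92.6, 88.2 and 55 FPKM in the controls and 39.4, 32.9 and 17.4 FPKM in DKO (log2 fold change -1.35 ± 0.28, adjusted p = 0.00865), and the related factor Hlf at 24, 25.9 and 15.6 FPKM and 10.9, 10.9 and 12 FPKM (-0.92 ± 0.19, adjusted p = 0.00782). The time of day at which each kidney was taken is not given in the sources used here. In the insulin-like growth factor list 3 of 13 genes rose and 2 fell (23.1% and 15.4%, where 10.2% and 4.73% of all genes did). With a library left out 2 or 3 rose and 0 or 1 fell. The calls of Igfbp5 (increased), Igf1r and Igfbp4 (decreased) were each lost in at least 5 of the 6 fits that left out 1 library. Irs2, an adaptor of the insulin receptor, rose from 3.56, 4.84 and 4.1 FPKM to 5.97, 7.15 and 8.97 FPKM (0.86 ± 0.17, adjusted p = 0.00639).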
